A study of Mus musculus with 15 samples.

Results

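The genes of the respiratory chain subunits that are encoded in the nucleus were examined in the livers of wildtype and Stab1-/- mice before and after birth. Genes were chosen by symbol, as those beginning Nduf followed by a, b, c, s or v and a digit, those beginning Uqcr, Cox4 to Cox8 or Atp5, and the genes Sdha to Sdhd, and 82 of the 19464 rows of the deposited table matched. They comprise 37 genes of complex I, 4 of complex II, 8 of complex III, 16 of complex IV and 17 of complex V. The rule follows names: Ndufab1, a complex I subunit, does not match it, Ndufa4 is counted with complex I by its name although its protein is now placed in complex IV, and Atp5s and Atp5sl are named after ATP synthase without being one of its subunits. Ndufa4l2, a relative of Ndufa4, and Cox7a2l, for a protein that joins complexes III and IV, are likewise counted by name. The subunits that mitochondrial DNA encodes were not analysed here.

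RNA sequencing libraries were made from whole liver of 4 wildtype and 4 Stab1-/- mice aged 2 weeks, and of 4 wildtype and 3 Stab1-/- fetuses at the late embryonic stage E17.5. Stab1-/- mice lack Clever-1, the scavenger receptor encoded by Stab1, in all cells, and the labels give the strain background of both genotypes as C57BL/6N;129SvJ, without saying whether they were littermates. Nothing in the labels ties a library to more than its group and replicate number, so the p-values below measure the spread between these libraries. Libraries held between 9659000 and 10964000 reads counted on genes, to the nearest 1000. The targeted gene went with the labels, with 68 to 119 Stab1 reads in Stab1-/- and 579 to 941 in wildtype libraries at 2 weeks, and 301 to 443 against 1244 to 1868 at E17.5. All 7 hepatocyte marker genes were detected in each group. Levels are given as RPKM, reads per kilobase of gene length relative to all reads counted on genes. Differences are log2 fold changes from edgeR's quasi-likelihood test on the counts with TMM scaling. Their standard error (SE) was derived from the fold change and the F statistic of that test, and the intervals use this SE. A gene is called when its Benjamini-Hochberg adjusted p over all tested genes is under 0.05.

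The respiratory chain sits in the inner mitochondrial membrane. Complex I and complex II pass electrons from NADH and succinate to ubiquinone, complex III passes them on to cytochrome c and complex IV to oxygen, and complex V, the ATP synthase, uses the proton gradient that complexes I, III and IV build to make ATP. Hepatocytes are rich in mitochondria, and the fetal liver is also a site of red blood cell formation. The promoters of many nuclear genes of the chain are known to hold sites for the transcription factors NRF1, GABP of the ETS family and YY1.

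Promoter sequence is shown because these genes moved together between the ages. RefSeq windows on GRCm38.p6, from 250 bases before to 50 bases after a start listed for the gene, could be matched for 68 of the 82 genes and gave 74 windows. For some genes, such as Cox5a, the listed start lies inside the locus and not at its end. They were searched on both strands for GCGCANGC (NRF1), CCGGAAG (ETS/GABP) and AANATGGC (YY1), where N is any base. The NRF1 letters stood in 25 of the 74 windows (33.8%) and in 9.95% of all 32851 windows of the same length. The ETS/GABP letters stood in 16 windows (21.6%, against 8.86% of all) and the YY1 letters in 19 (25.7%, against 6.05%). At least 1 of the 3 stood in 48 windows, or 64.9%, against 21.6% of all windows. Windows of 1 gene can overlap and hold the same match. By gene, 24 of the 68 held the NRF1 letters, 16 the ETS/GABP letters, 18 the YY1 letters and 46 at least 1 of them. The windows compared with were not chosen for like GC content. A match of letters is a description and not a site, and its part in the changes between the ages was not tested. The windows below are those of the most abundant gene of complexes I, II, IV and V (Ndufa4, Sdhd, Cox6a1 and Atp5b), and of Cox6b2, one of the genes that fell. Uqcrq and Ndufa4l2 had no matched window. Capitals mark matches to the letters searched.
Ndufa4 (chr6:11907401-11907700, minus strand): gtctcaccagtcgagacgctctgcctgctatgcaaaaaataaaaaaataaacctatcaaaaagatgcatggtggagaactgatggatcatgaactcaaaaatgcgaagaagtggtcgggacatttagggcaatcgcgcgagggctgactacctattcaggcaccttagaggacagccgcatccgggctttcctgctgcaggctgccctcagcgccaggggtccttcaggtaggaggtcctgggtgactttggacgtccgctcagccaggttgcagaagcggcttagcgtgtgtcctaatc
Sdhd (chr9:50603800-50604099, minus strand): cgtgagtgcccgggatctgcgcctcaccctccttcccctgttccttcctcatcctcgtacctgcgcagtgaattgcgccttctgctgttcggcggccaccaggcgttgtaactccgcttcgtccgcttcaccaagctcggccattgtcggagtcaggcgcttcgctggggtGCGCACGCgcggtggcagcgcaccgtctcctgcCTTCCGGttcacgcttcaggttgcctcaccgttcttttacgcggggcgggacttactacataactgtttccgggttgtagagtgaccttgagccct
Cox6a1 (chr5:115348909-115349208, minus strand): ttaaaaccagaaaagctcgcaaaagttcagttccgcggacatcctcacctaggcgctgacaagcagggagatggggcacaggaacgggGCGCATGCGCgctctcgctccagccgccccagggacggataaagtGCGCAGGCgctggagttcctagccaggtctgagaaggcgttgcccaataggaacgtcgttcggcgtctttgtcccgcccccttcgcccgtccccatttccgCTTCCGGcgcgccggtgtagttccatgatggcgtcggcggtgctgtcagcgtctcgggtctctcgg
Atp5b (chr10:128083057-128083356, plus strand): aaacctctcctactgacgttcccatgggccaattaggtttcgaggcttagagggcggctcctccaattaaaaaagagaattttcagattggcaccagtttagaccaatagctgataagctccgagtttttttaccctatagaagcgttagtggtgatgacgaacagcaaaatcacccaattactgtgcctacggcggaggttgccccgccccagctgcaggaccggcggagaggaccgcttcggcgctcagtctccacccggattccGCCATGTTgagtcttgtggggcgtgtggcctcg
Cox6b2 (chr7:4753045-4753344, minus strand): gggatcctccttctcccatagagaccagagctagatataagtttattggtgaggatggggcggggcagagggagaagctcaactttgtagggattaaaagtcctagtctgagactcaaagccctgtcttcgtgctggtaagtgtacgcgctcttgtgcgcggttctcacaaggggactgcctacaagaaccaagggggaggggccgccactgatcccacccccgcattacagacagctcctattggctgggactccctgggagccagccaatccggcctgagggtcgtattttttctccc
Ndufa4 held no match, and Sdhd held 1 NRF1 and 1 ETS/GABP match. Cox6a1 held 3 NRF1 matches, of which 2 overlap within a single run of capitals, and 1 ETS/GABP match. Atp5b held 1 YY1 match, and Cox6b2 none. Of the genes with the largest wildtype rise in complexes I, II and IV, Ndufa1 and Cox5a held none and Sdhb held 1 NRF1 and 1 ETS/GABP match.

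The subunit genes were among the abundant transcripts of the liver and took a larger share of all reads after birth. Together they received 0.930% to 1.07% of the reads in wildtype and 0.964% to 1.003% in Stab1-/- livers at E17.5, and 1.26% to 1.57% and 1.51% to 1.76% at 2 weeks. No library of either genotype at 2 weeks overlapped with those at E17.5. The most abundant genes of complexes I, II, III, IV and V, by the mean of the 4 group means, were Ndufa4, Sdhd, Uqcrq, Cox6a1 and Atp5b. Their wildtype levels at 2 weeks were 697 ± 259, 233 ± 15.5, 556 ± 140, 570 ± 66.1 and 737 ± 30.1 RPKM (SD, n = 4). At the other end, Cox4i2, Cox6a2 and Cox8b had at most 7, 10 and 2 reads in any library and did not pass the filter on low counts, which left 79 of the 82 genes in each comparison. The transcripts are short, with a median listed length of 679 bases against 2842 over all tested genes in the wildtype comparison of ages, and 53 of the 79 are under 1000 bases. Their median GC content was only slightly higher, 52.2% against 50.2%.

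**Figure D1:**
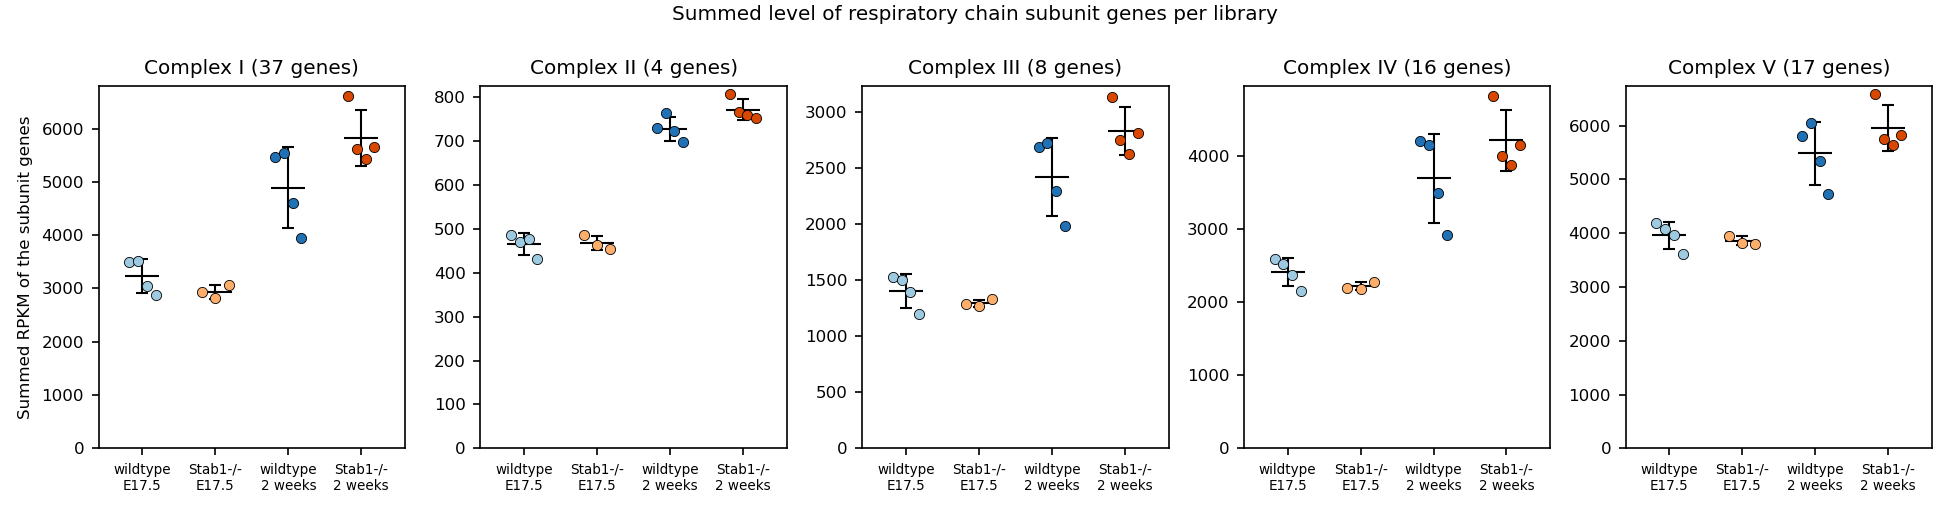
Summed RPKM of the subunit genes of each complex, 1 point per library, with the mean and SD of each group (n = 4, Stab1-/- E17.5 n = 3). In each complex and genotype the libraries at 2 weeks lie above those at E17.5, and wildtype libraries at 2 weeks are the most scattered in complexes I, III, IV and V.

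Livers at 2 weeks were compared with livers at E17.5 to see how the chain differs between the fetal and the postnatal organ. In wildtype livers 75 of the 79 tested genes were higher at 2 weeks and 2 were lower, where 34.9% of all tested genes were called higher and 37.0% lower. For Stab1-/- livers the counts were again 75 and 2, against 35.7% and 36.8% of all tested genes. The libraries of these comparisons are separate, and 74 genes were called higher and the 2 called lower in both. The median log2 fold change of the 79 genes was 0.93 in wildtype and 0.96 in Stab1-/- livers, where the medians over all tested genes were -0.01 and -0.01. Across the 79 genes the wildtype and Stab1-/- changes had a Pearson's r of 0.928 and a Spearman's rho of 0.693, as a description over genes that share libraries.

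The size of the rise was of the same order in each complex. Median log2 fold changes in wildtype livers were 0.93 in complex I, 1.04 in complex II, 1.02 in complex III, 0.79 in complex IV and 0.77 in complex V. In Stab1-/- livers they were 0.97, 0.91, 1.18, 0.91 and 0.95. No difference between complexes was tested. On the RPKM scale the summed level of complex I was 3233 ± 325 at E17.5 and 4889 ± 761 at 2 weeks in wildtype livers (SD, n = 4 each). The same sums were 466 ± 24.8 and 729 ± 27.6 for complex II, 1405 ± 151 and 2421 ± 350.4 for complex III, 2413 ± 191 and 3702 ± 608 for complex IV, and 3957 ± 248 and 5483 ± 581 for complex V. In each of the 5 complexes the lowest sum at 2 weeks was above the highest at E17.5. Gene by gene, 55 of the 79 had every wildtype library at 2 weeks above every one at E17.5 by RPKM, and 71 had so in Stab1-/- livers. Over all tested genes the shares were 21.1% and 28.0%. The other way round, with each library at 2 weeks below each at E17.5, were 2 of the 79 genes in either genotype, against 48.0% and 44.0% of all tested genes.

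**Figure D2:**
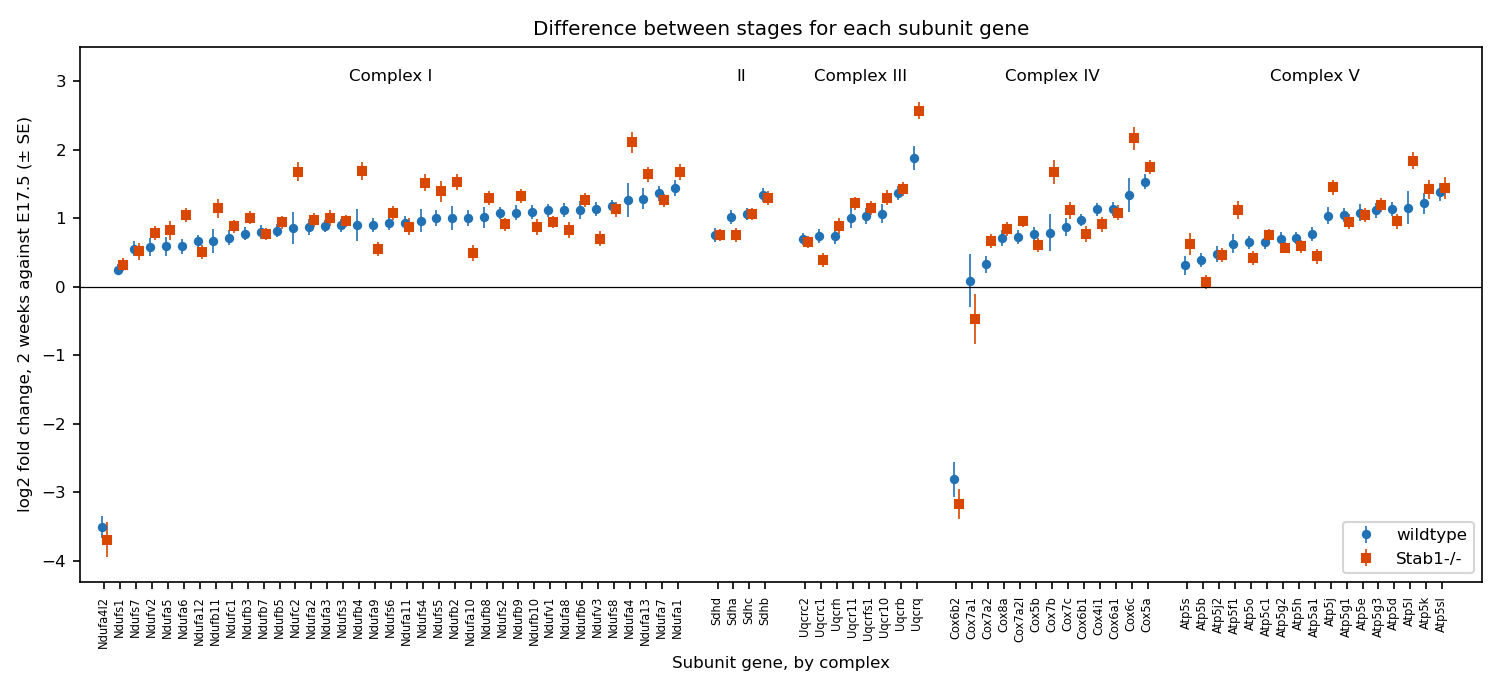
log2 fold change between 2 weeks and E17.5 with its SE for each of the 79 tested subunit genes, ordered within each complex by the wildtype value, in wildtype (circles) and Stab1-/- livers (squares). Most genes lie above 0, with Uqcrq highest at 1.88 and 2.57, while Ndufa4l2 and Cox6b2 lie far below 0 in both genotypes.

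The size of the rise depended on the scale. Scaled by library totals, as RPKM is, the median over all tested genes moved to -0.38 in wildtype and -0.24 in Stab1-/- livers, and 3104 genes were called higher and 6834 lower in wildtype livers in place of 4667 and 4948. In Stab1-/- livers 3758 were called higher and 5944 lower in place of 4791 and 4945. The median of the subunit genes was then 0.57 in wildtype and 0.73 in Stab1-/- livers, which lies 0.95 and 0.97 above that of all genes. By library totals 62 subunit genes were called higher and 2 lower in wildtype livers, and 69 and 2 in Stab1-/- livers. The wildtype changes of Atp5s, Cox7a1, Cox7a2 and Ndufs1 then had the opposite sign, and so had the Stab1-/- change of Atp5b.

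Bulk liver holds other cells, and fewer cells of a type cannot be told apart from less RNA per cell. The summed level of 8 erythroid markers, with the heme synthesis enzyme gene Alas2 and the transcription factor genes Gata1 and Klf1 among them, was 2179 to 2633 RPKM in wildtype livers at E17.5 and 29.9 to 52.4 at 2 weeks. In Stab1-/- livers it was 1713 to 2467 and 28.3 to 55.2 RPKM, and all 8 genes were lower at 2 weeks in both genotypes. The summed level of 7 hepatocyte markers was 47635 to 52388 RPKM in wildtype livers at E17.5 and 74163 to 94762 at 2 weeks. For Stab1-/- livers it was 51395 to 59515 and 58991 to 75978 RPKM, which overlap. The 7 genes were all called higher at 2 weeks in wildtype livers and 6 of them in Stab1-/- livers. The mean level of Alb, the albumin gene and most of the sum, was 42173 RPKM at E17.5 and 57001 at 2 weeks in wildtype livers, and 47523 and 44441 in Stab1-/- livers. The part of this shift in cell types in the changes of the subunit genes was not tested.

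In complex I the 7 genes of the catalytic core, which bind the flavin and the iron-sulfur clusters and take up NADH or ubiquinone, were all higher at 2 weeks in both genotypes. Their wildtype log2 fold changes ran from 0.25 (SE 0.08) for Ndufs1 to 1.18 for Ndufs8. Of the 30 other genes, counted by name, 29 were higher and 1, Ndufa4l2, was lower in both genotypes, with wildtype medians of 0.94 for the 30 and 0.90 for the core. The largest wildtype rise was that of Ndufa1, a small membrane-anchored subunit on the X chromosome (GRCm38.p6, chrX:37187588-37191238). Its level was 66.8, 60.5, 62.6 and 64.7 RPKM in wildtype livers at E17.5 and 160, 146, 126 and 108 RPKM at 2 weeks. Each 2-week library was above each E17.5 library, and the log2 fold change was 1.44 (SE 0.11, adjusted p = 1.94e-07 by edgeR). In Stab1-/- livers Ndufa1 was at 53.2, 62.4 and 62.2 RPKM at E17.5 and at 185, 160, 152 and 154 RPKM at 2 weeks, a log2 fold change of 1.67 (SE 0.12). Ndufa4, the most abundant gene named for complex I, was at 427, 457, 290 and 294 RPKM in wildtype livers at E17.5 and at 929, 875, 616 and 367 RPKM at 2 weeks. These groups overlapped through wildtype replicate 4 at 2 weeks, and the log2 fold change was 1.27 (SE 0.25, adjusted p = 0.00055 by edgeR).

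Complex II is the only complex of the chain that is encoded in the nucleus throughout, and its enzyme also works in the citric acid cycle. All 4 genes were higher at 2 weeks in both genotypes, with no overlap of RPKM values between the ages. The rise was largest for Sdhb, the iron-sulfur subunit (chr4:140961271-140979198), at 98.3, 88.3, 90.5 and 77.2 RPKM in wildtype livers at E17.5 and 168, 187, 177 and 166 RPKM at 2 weeks. The log2 fold change was 1.34 (SE 0.10, adjusted p = 2.07e-07 by edgeR) in wildtype and 1.30 (SE 0.10) in Stab1-/- livers. Sdhd, a membrane anchor and the most abundant of the 4, rose by 0.75 (SE 0.10) and 0.76 (SE 0.09) on the log2 scale.

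All 8 complex III genes were higher at 2 weeks in both genotypes. Uqcrq, which encodes a small membrane subunit (chr11:53427922-53430831), had the largest rise of all 79 genes in both. It was at 211, 209, 203 and 148 RPKM in wildtype livers at E17.5 and at 672, 683, 448 and 422 RPKM at 2 weeks. The ages did not overlap although the 2-week libraries fell into a higher and a lower pair, and the log2 fold change was 1.88 (SE 0.17, adjusted p = 8.1e-07 by edgeR). Stab1-/- livers had it at 144, 149.8 and 154 RPKM at E17.5 and 912, 716, 677 and 745 RPKM at 2 weeks, a log2 fold change of 2.57 (SE 0.13). The locus overlaps that of Gdf9 in RefSeq, and it is not stated whether counting used strand. The core subunit genes Uqcrc1, Uqcrc2 and Uqcrfs1, the last for the Rieske iron-sulfur protein, rose by 0.75, 0.70 and 1.03 on the log2 scale in wildtype livers.

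In complex IV 11 of the 13 tested genes were higher at 2 weeks in both genotypes and 1 was lower. Cox5a, for a subunit on the matrix side of the complex, rose most in wildtype livers, from 141, 127, 137 and 112 RPKM at E17.5 to 306, 333, 277 and 256 RPKM at 2 weeks. The ages did not overlap, with a log2 fold change of 1.53 (SE 0.11, adjusted p = 1.08e-07 by edgeR), and of 1.75 (SE 0.11) in Stab1-/- livers. Cox6a1, the most abundant gene of the complex, rose by 1.14 (SE 0.10) and 1.08 (SE 0.11). Cox7a1, the muscle and heart form of its subunit, had 5 to 28 reads in a library and was not called, with log2 fold changes of 0.09 (SE 0.39) and -0.47 (SE 0.37).

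In complex V the genes of the catalytic head with its central stalk, of the ring of c subunits and of the peripheral stalk were all higher at 2 weeks in wildtype livers. Their median log2 fold changes were 0.77 over 5 genes, 1.05 over 3 genes and 0.68 over 4 genes. Atp5b, the catalytic beta subunit and the most abundant of them, differed least. It was at 733, 687, 764 and 696 RPKM in wildtype livers at E17.5 and at 714, 714, 742 and 777 RPKM at 2 weeks, ranges that overlap on this scale. On the TMM scale it was called higher in wildtype livers, by 0.40 (SE 0.10, adjusted p = 0.00422 by edgeR), and by library totals it was not, at 0.03. In Stab1-/- livers the change of Atp5b was 0.07 (95% interval -0.16 to 0.30) and was not called. The largest wildtype rise under an Atp5 name was that of Atp5sl, at 1.38 (SE 0.13), from a low level of 4.31 ± 0.260 RPKM at E17.5 to 8.71 ± 1.08 RPKM at 2 weeks (SD, n = 4). Atp5s was called higher in Stab1-/- livers, by 0.62, and had 0.32 (SE 0.14, adjusted p = 0.0555 by edgeR) in wildtype livers.

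Only 2 genes of the 79 were lower at 2 weeks. Ndufa4l2, a relative of Ndufa4 that is known as a target of hypoxia-inducible factor 1, was at 29.3, 27.7, 30.2 and 30.1 RPKM in wildtype livers at E17.5 and at 1.36, 2.45, 1.72 and 2.47 RPKM at 2 weeks. Stab1-/- livers had it at 25.6, 25.6 and 42.5 RPKM and at 2.06, 1.34, 2.42 and 2.50 RPKM. No library of one age overlapped with the other, and the log2 fold changes were -3.51 (SE 0.17) and -3.69 (SE 0.25), with adjusted p of 2.39e-09 and 2.08e-07 by edgeR. Reads fell from 264 to 444 in a library at E17.5 to 14 to 26 at 2 weeks, and the locus overlaps that of Shmt2. Cox6b2, the testis form of the subunit whose general form is Cox6b1, was at 25.5, 26.7, 31.9 and 23.1 RPKM in wildtype livers at E17.5 and at 1.56, 2.56, 2.90 and 4.76 RPKM at 2 weeks. The log2 fold changes were -2.81 (SE 0.25) in wildtype and -3.17 (SE 0.22) in Stab1-/- livers, again with no overlap.

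**Figure D3:**
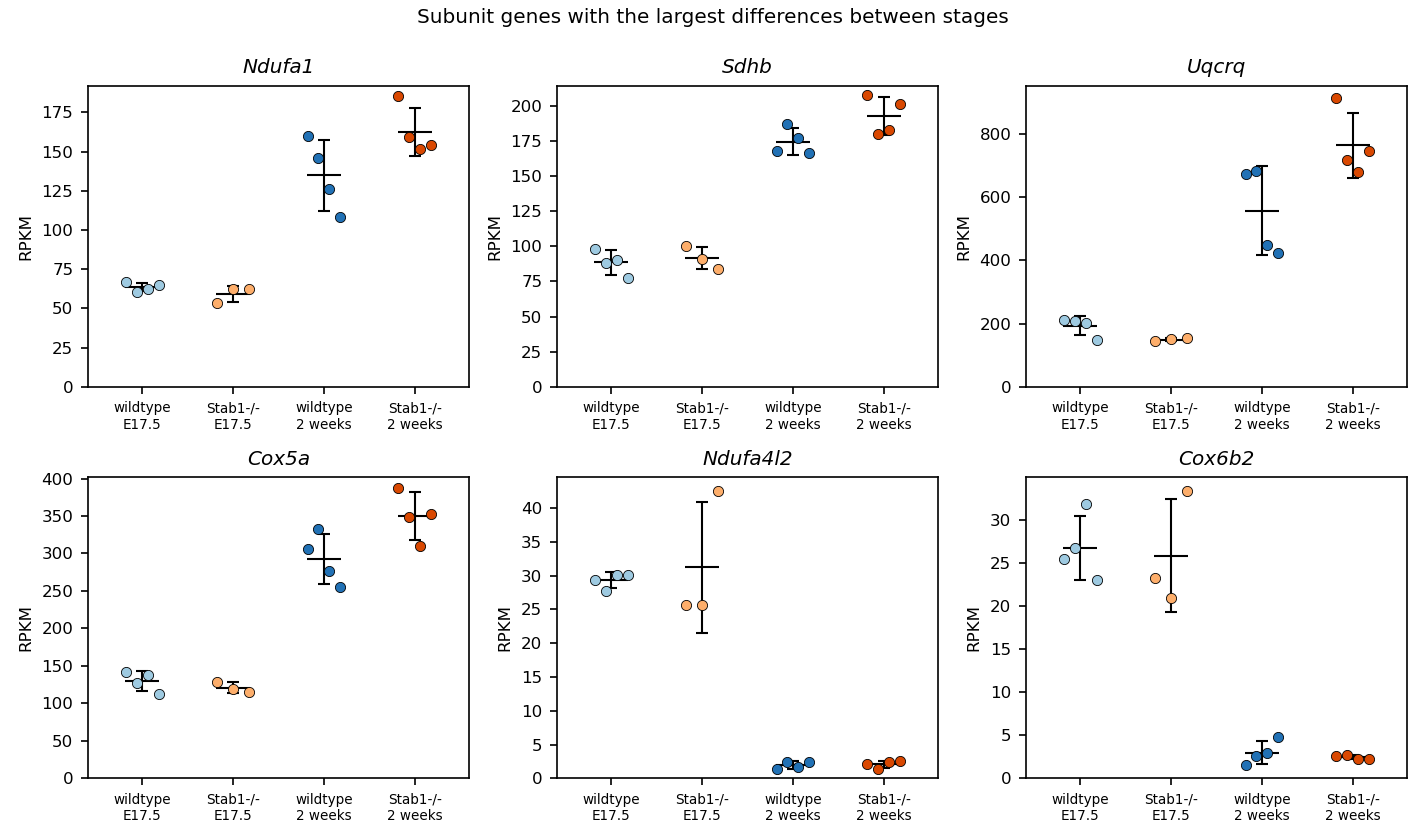
RPKM of 6 subunit genes in each library, with the mean and SD of each group (n = 4, Stab1-/- E17.5 n = 3). Ndufa1, Sdhb, Uqcrq and Cox5a are the genes of complexes I to IV with the largest wildtype rise and Ndufa4l2 and Cox6b2 the 2 that fell, and in all 6 the ages do not overlap in either genotype.

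Paired forms of a subunit were compared by the share of the minor form in the summed RPKM of its set, which does not depend on the scaling between libraries. Ndufa4l2 made up 7.71% ± 1.92 of Ndufa4 and Ndufa4l2 in wildtype livers at E17.5 and 0.343% ± 0.226 at 2 weeks (SD, n = 4 each). The Stab1-/- shares were 10.2% ± 1.83 (n = 3) and 0.213% ± 0.0705 (n = 4). Cox6b2 made up 9.55% ± 0.917 of Cox6b1 and Cox6b2 in wildtype livers at E17.5 and 0.773% ± 0.405 at 2 weeks, and 9.30% ± 2.35 and 0.665% ± 0.0906 in Stab1-/- livers. In each of these 4 comparisons the ages did not overlap and the two-sided exact permutation p was 0.0286, or 0.114 after adjustment over 24 tests. This is the smallest p that 4 against 4 or 3 against 4 libraries gave in this test, and 0.114 was the smallest adjusted p of the 24.

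The other forms stayed minor in each group. Cox7a1 made up 2.04% ± 0.400 of Cox7a1 and Cox7a2 in wildtype livers at E17.5 and 1.74% ± 1.01 at 2 weeks. Cox4i2 made up 0.210% ± 0.0911 and 0.0473% ± 0.0415 of Cox4i1 and Cox4i2 (exact permutation p = 0.0286, adjusted p = 0.114), from at most 7 reads in a library, and Cox6a2 0.142% ± 0.176 and 0.0373% ± 0.0316 of Cox6a1 and Cox6a2. Cox6a2, Cox7a1 and Cox8b are the forms of striated muscle or brown fat. The highest Cox6a2 level, 1.37 RPKM from 10 reads, was in wildtype replicate 1 at E17.5, the library in which 10 striated muscle markers summed to 127 RPKM where the other libraries at that age had 8.38 to 15.9. Its part in the Cox6a2 value was not tested, and without that library 76 subunit genes were called higher at 2 weeks and 2 lower in wildtype livers. The summed level of 3 brown fat markers was at most 2.53 RPKM in any library. Cox8b had at most 2 reads in a library, under the 3 reads taken as the smallest count a library can show. Among the 3 genes of the c subunit, whose mature proteins are the same, Atp5g3 gave 55.7% ± 1.23 of the RPKM in wildtype livers at E17.5 and 59.8% ± 1.06 at 2 weeks. Atp5g1 gave 20.8% ± 0.967 and 21.3% ± 1.12, and 19.5% ± 0.472 in Stab1-/- livers at 2 weeks (exact permutation p = 0.0286 against wildtype, adjusted p = 0.114). Atp5g2 gave 23.5% ± 0.703 and 18.8% ± 1.71 in wildtype livers (SD, n = 4).

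Genes that work beside the chain were followed in lists, to be read against the 34.9% of all tested genes called higher and 37.0% called lower in wildtype livers and the 35.7% and 36.8% in Stab1-/- livers. Of 37 tested assembly factors 29 were higher and 2 lower at 2 weeks in wildtype livers, with a median log2 fold change of 0.66. The largest rise was that of Sdhaf1, needed to mature the iron-sulfur subunit of complex II, at 1.30 (SE 0.16). Of 76 mitochondrial ribosomal protein genes, which serve the translation of the subunits made inside the mitochondrion, 58 were higher and 1 lower, with a median of 0.52. Of 13 citric acid cycle genes 9 were higher, among them Sucla2 for a succinyl-CoA ligase subunit at 1.67 (SE 0.10), and of 10 carrier and electron transfer genes 7 were higher, among them Etfb for electron transfer flavoprotein at 1.74 (SE 0.10). The 15 transcription regulators were mixed, with 7 higher and 4 lower. Esrrg, for the nuclear receptor ERR gamma, rose from 0.161 to 1.63 RPKM with a log2 fold change of 3.68 (SE 0.24), and Myc fell by 2.49 (SE 0.12) on the log2 scale. In Stab1-/- livers 33 of 36 assembly factors were higher and 1 lower, 66 and 1 of the 76 ribosomal protein genes, 8 and 3 of the 13 cycle genes, 6 and 1 of the 10 carrier genes and 7 and 4 of the 15 regulators. In wildtype livers all 5 medians lay above the -0.01 of all tested genes, with 0.51 in the cycle, 0.55 in the carriers and 0.06 in the regulators.

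Genotypes were compared within each age to see whether loss of Clever-1 changes the chain. No subunit gene was called in Stab1-/- livers at 2 weeks, where 0.936% of all 12716 tested genes were called higher and 1.74% lower, and none at E17.5, where 0.194% and 0.172% of 13388 were. Scaled by library totals, 137 genes were called higher and 118 lower at 2 weeks in place of 119 and 221, and 22 and 32 in place of 26 and 23 at E17.5, with 0 subunit genes among them. At 2 weeks 13 of the 79 genes had an unadjusted p under 0.05 by edgeR, or 16.5% against 23.4% of all tested genes, and 8 of them were higher and 5 lower. At E17.5 there were 3 genes, or 3.80% against 12.9%. DESeq2 also called 0 of the 79 genes at either age, with 16 and 5 at an unadjusted p under 0.05. The result at 2 weeks was not the same in each fit: 1 gene, Cox7a2l, was called higher in a fit to all 15 libraries, and 1, Atp5j2, lower with trends on GC content and length removed. Over all genes these 2 fits called 316 higher and 387 lower of 13885, and 115 and 194 of 12648. Fits with a replicate block called other subunit genes and are given in the closing section. The median log2 fold change of the 79 genes was 0.07 at 2 weeks, with 48 genes above 0 and 31 below, and -0.01 at E17.5, with 39 and 40. By library totals, as RPKM is scaled, it was 0.16, with 60 and 19 genes, and -0.065, with 23 and 56. The median over all tested genes was then 0.08 at 2 weeks and -0.06 at E17.5. Without 1 library the median of the 79 genes on the TMM scale ran from 0.036 (without wildtype replicate 4) to 0.12 (without Stab1-/- replicate 3) at 2 weeks, and their number with an unadjusted p under 0.05 from 2 (without Stab1-/- replicate 1) to 22 (without wildtype replicate 1). At E17.5 the median ran from -0.058 (without wildtype replicate 4) to 0.035 (without wildtype replicate 1), and the number of genes from 1 to 13 (without wildtype replicate 4). Calls over all genes moved too. At 2 weeks they were 41 higher and 75 lower without Stab1-/- replicate 1, and 112 and 187 without wildtype replicate 1. At E17.5 they were 22 and 24 without wildtype replicate 4. By complex, from I to V, the medians were 0.10, 0.00, 0.08, 0.10 and -0.05 at 2 weeks and -0.01, 0.07, -0.04, 0.01 and 0.01 at E17.5. By RPKM, 11 genes had every Stab1-/- library above every wildtype library at 2 weeks and 4 had every one below, where 10.4% and 4.5% of all tested genes did. At E17.5 these were 1 and 2 genes, against 2.91% and 9.3% of all tested genes. The summed level of the 7 hepatocyte markers was 58991 to 75978 RPKM in Stab1-/- livers at 2 weeks, where wildtype livers had 74163 to 94762. The markers did not move together: the mean level of Alb was 57001 RPKM in wildtype and 44441 in Stab1-/- livers and that of Ttr 7015 and 5557, but that of Cyp2e1 was 3061 and 4537, that of Apoa1 14331 and 14313, and that of Hnf4a 124 and 129. None of the 7 was called between genotypes, and their part in the values of the subunit genes was not tested. The 95% interval of a single gene reached 0.23 on either side of its log2 fold change in the median at both ages and 0.91 at most at 2 weeks, so that changes within these intervals could not be seen with these libraries.

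The 3 genes with the smallest p at 2 weeks differed in direction. Cox7a2l, for a protein that joins complexes III and IV in supercomplexes, was at 102, 104, 99.4 and 75.5 RPKM in wildtype and at 124, 128, 130 and 120 RPKM in Stab1-/- livers. The groups did not overlap, with wildtype replicate 4 well below the others, and the log2 fold change was 0.31 (95% interval 0.09 to 0.54, adjusted p = 0.11 by edgeR). Atp5f1, for the b subunit of the peripheral stalk, was at 294, 288, 222 and 189 RPKM in wildtype and at 440.3, 322, 325 and 311 RPKM in Stab1-/- livers, again without overlap, and its log2 fold change was 0.41 (95% interval 0.10 to 0.71, adjusted p = 0.123 by edgeR). Ndufv3, for a small subunit of the NADH-binding arm, was at 45.9, 49.4, 47.7 and 45.4 RPKM in wildtype and at 37.2, 42.2, 39.6 and 44.4 RPKM in Stab1-/- livers. It was lower in each Stab1-/- library, with a log2 fold change of -0.29 (95% interval -0.52 to -0.07, adjusted p = 0.125 by edgeR).

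At E17.5 the 3 smallest p belonged to Ndufa12, Cox6c and Uqcrq. Ndufa12, an accessory subunit gene of complex I, was at 52.5, 45.7, 53.2 and 45.0 RPKM in wildtype and at 56.6, 56.2 and 62.9 RPKM in Stab1-/- livers, without overlap, and its log2 fold change was 0.31 (95% interval 0.08 to 0.54, adjusted p = 0.257 by edgeR). Cox6c, for a small subunit of complex IV, was at 294, 292, 221 and 209 RPKM in wildtype and at 166, 162 and 225 RPKM in Stab1-/- livers. The groups overlapped through Stab1-/- replicate 3, and the log2 fold change was -0.41 (95% interval -0.77 to -0.04, adjusted p = 0.347 by edgeR). Uqcrq, with the values at E17.5 given above, had -0.31 (95% interval -0.60 to -0.02, adjusted p = 0.367 by edgeR).

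**Figure D4:**
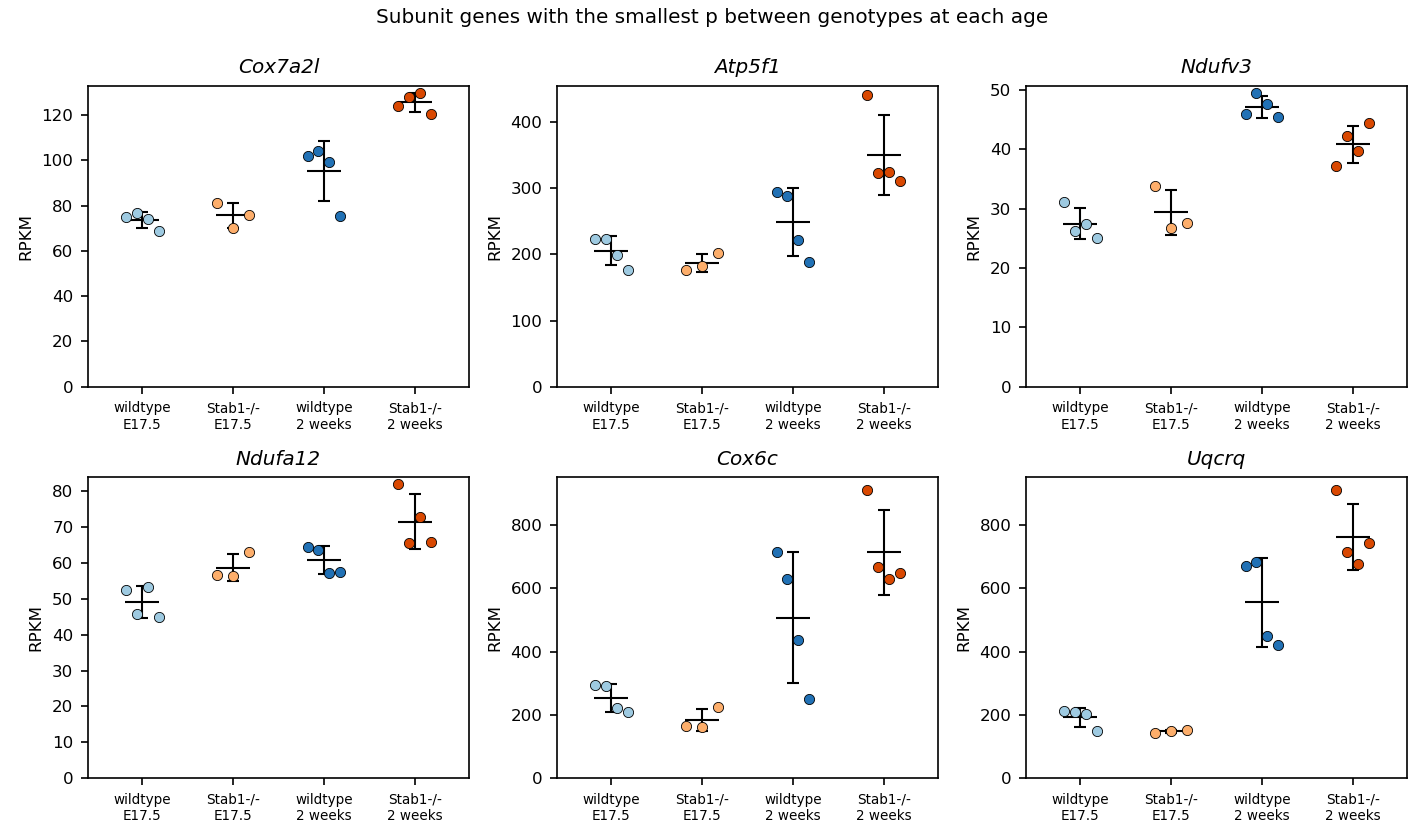
RPKM of the 3 subunit genes with the smallest p between genotypes at 2 weeks (Cox7a2l, Atp5f1, Ndufv3) and at E17.5 (Ndufa12, Cox6c, Uqcrq), 1 point per library, with the mean and SD of each group (n = 4, Stab1-/- E17.5 n = 3). Cox7a2l, Atp5f1 and Ndufv3 do not overlap between genotypes at 2 weeks, and Cox6c in wildtype livers at 2 weeks spans 252 to 713 RPKM.

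The genotype differences had opposite signs at the 2 ages in 59 of the 79 genes, or 74.7%, where 61.3% of the 12326 genes tested at both ages did. Of these, 34 were above 0 at 2 weeks and below 0 at E17.5. Across the 79 genes the differences at the 2 ages, which share no library, had a Pearson's r of -0.666 and a Spearman's rho of -0.662, as a description over genes that share libraries, and over all genes -0.119 and -0.281. Tested as the difference between the ages, 0 of the 79 genes were called by edgeR, where 0.799% of all 13885 tested genes were called higher and 1.01% lower (111 and 140, or 209 and 83 by library totals), and 20 genes (25.3%, against 23.2% of all) had an unadjusted p under 0.05. The smallest adjusted p was 0.092, for Uqcrq, at a difference of 0.71 (SE 0.23) on the log2 scale. DESeq2 called 1 of the 79 genes higher, Uqcrq, and 1 lower, Atp5b, where it called 448 higher and 618 lower of all 13885 tested genes.

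**Figure D5:**
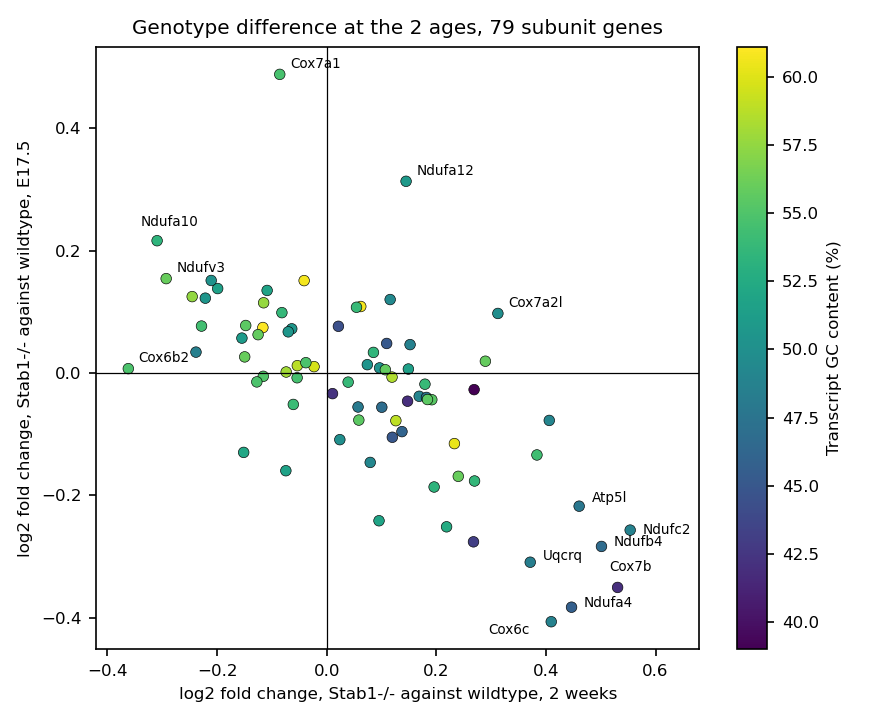
log2 fold change between Stab1-/- and wildtype livers at 2 weeks (horizontal) and at E17.5 (vertical) for the 79 subunit genes, coloured by transcript GC content in percent. Cox7b, Cox6c, Ndufc2, Ndufa4, Ndufb4 and Atp5l lie together at the lower right, and none of the 79 genes was called at either age.

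Some subunit genes varied widely between wildtype livers of the same age. Among genes above 10 RPKM the 6 with the largest coefficient of variation in wildtype livers at 2 weeks, picked after their values were seen, were Cox7b, Cox6c, Ndufc2, Ndufa4, Ndufb4 and Atp5l, with 33.6% to 44.8% against a median of 11.5% over the 79 genes. Cox7b, for a small subunit of complex IV, was at 328, 296, 177 and 110 RPKM in the 4 wildtype and at 484, 296, 314 and 298 RPKM in the 4 Stab1-/- livers at 2 weeks. Wildtype replicates 3 and 4 were low and Stab1-/- replicate 1 high, and the groups overlapped. Its log2 fold changes of 0.53 (SE 0.27) at 2 weeks and -0.35 (SE 0.18) at E17.5 were not called. The transcripts of these 6 genes have a GC content of at most 48.8%, below the median of the tested genes.

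Measures of the libraries moved along with these differences. Across the 79 genes the log2 fold change between genotypes had a Spearman's rho with transcript GC content of -0.378 at 2 weeks and 0.33 at E17.5, and over all genes -0.338 and 0.153. With listed length the rho across the 79 genes was -0.23 at 2 weeks and 0.392 at E17.5, and over all genes -0.178 and 0.146. The 20 subunit genes of lowest GC content (39.0% to 48.8%) had a median of 0.17 at 2 weeks and -0.08 at E17.5, and the 20 of highest GC content (55.5% to 61.1%) -0.03 and 0.02. Single libraries are described in the same way. The deviation of the 6 genes from their group mean had the opposite sign to the rho of the other genes' deviations with GC content in 14 of the 15 libraries, and the same sign in Stab1-/- replicate 2 at E17.5. The 6 genes were picked from these libraries for their spread and are all low in GC content, so this count is no independent support. It also includes rho values near none, such as -0.00392 in wildtype replicate 1 at E17.5. In wildtype replicate 4 at 2 weeks the deviation of the other genes from their group mean had a rho of 0.303 with GC content and the 6 genes lay 0.76 below theirs on the log2 scale, and in Stab1-/- replicate 1 the values were -0.345 and 0.32 above. In Stab1-/- replicate 4 at 2 weeks, with a rho of 0.319, the 6 genes lay 0.08 below their group mean. With a trend on GC content alone removed from each library the 79 genes had a median of 0.10 (2 weeks) and -0.01 (E17.5). With trends on GC content and length removed together it was -0.08 and 0.09, so that its sign turned at both ages. The 10 most abundant genes took 24.4% to 28.7% of the reads in wildtype and 19.0% to 23.6% in Stab1-/- libraries at 2 weeks. The highest of these shares was in wildtype replicate 4 and the lowest in Stab1-/- replicate 1. At E17.5 the shares were 21.2% to 22.9% and 23.6% to 25.5%. The part of the libraries' composition in the genotype differences was not tested beyond these values.

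The accompanying genes were not called between genotypes either, with 1 exception. Of 36 assembly factors, 13 citric acid cycle genes, 10 carrier and electron transfer genes and 76 mitochondrial ribosomal protein genes tested at 2 weeks none was called, and of the 15 regulators 1 was lower. Over all tested genes 0.936% were called higher and 1.74% lower at that age. The regulator was Myc, a transcription factor with mitochondrial genes among its targets, at 3.01 RPKM in wildtype and 1.90 RPKM in Stab1-/- livers, with a log2 fold change of -0.75 (SE 0.16, adjusted p = 0.0341 by edgeR). At E17.5 no gene of these lists was called, where 0.194% of all tested genes were called higher and 0.172% lower. For the difference between the ages, 1 of 37 assembly factor genes (Cox20) and 2 of 76 mitochondrial ribosomal protein genes (Mrps24 and Mrpl33) were called higher. Over all tested genes 0.799% were called higher and 1.01% lower there.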

How the data were processed

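Liver RNA from 4 wildtype and 4 Stab1-/- mice at 2 weeks and 4 wildtype and 3 Stab1-/- fetuses at E17.5 was extracted with a Nucleo-Spin kit and sequenced at BGI. The authors deposited, for each of 19464 gene rows and 15 libraries, the count of uniquely mapped reads, the RPKM and the percent of the gene covered by reads, which was not used beyond a check of the table. The deposited RPKM values were recomputed from the counts and listed lengths without a deviation over 0.001 percent. The aligner, counter, genome build and strand setting are not given in the sources used here. Counting unique reads can lower genes with near-identical copies, such as Ndufs5, and 27 of the 82 loci overlap another RefSeq gene.

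Groups came from the sample labels. Counts were filtered by filterByExpr (minimum count 10, minimum total 15), scaled by TMM and tested two-sided with edgeR 4.0.16 in R 4.3.3 and Benjamini-Hochberg adjustment, with the genotypes within each age, the ages within each genotype and the interaction over 15 libraries. Fits were tested on simulated data. Shares of subunit forms were compared by exact permutation tests. Alternatives were median-of-ratios and library-total scaling, no filter, DESeq2 1.42.0, limma 3.58.1 on log2(RPKM + 0.1) or log2(RPKM + 1), 1 fit to all libraries, a replicate block, offsets for GC content (mgcv 1.9.3) and length, and leaving out each library. The named genes were, for each genotype comparison without a call, the 3 of smallest p; for the ages, the largest called rise and fall of each complex in wildtype livers; and the most abundant gene of each complex and the sets of paired forms. Other genes given with values were picked after these were seen. The members and lists were chosen with earlier results of these data known. Libraries of a group differed by more than counting noise (chi-square per degree of freedom of at least 5.41), so none was counted as a second run of another. That value cannot show whether libraries came from separate animals. Positions and promoters are from RefSeq on GRCm38.p6, and transcript GC content is from GENCODE vM21. Intervals and the floor of 3 reads cover counting error or library spread only.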

Additional observations from a re-analysis of the deposited data

Results flagged for a closer look

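Values of the named genes and of the shares were tested for a single library apart from its group by Dixon's test in groups of 4, and 8 of 102 group values were picked out, where chance gives about 1 in 20. Stab1-/- replicate 1 at 2 weeks was high for Ndufa4 (1329 RPKM, next 901), Cox6c (911 RPKM, next 666) and Atp5f1 (440.3 RPKM, next 325). In the same library Cox8b stood at 0.265 RPKM, or 0.0523% of Cox8a and Cox8b, where the other 3 were at 0, which is a single read. Wildtype replicate 4 at 2 weeks was low for Cox7a2l (75.5 RPKM, next 99.4). Wildtype replicate 4 at E17.5 was low for Uqcrq (148 RPKM, next 203) and Atp5g2 (175 RPKM, next 199.6). Without Stab1-/- replicate 1 or without either of these wildtype libraries, 0 of the 79 genes were called between genotypes within an age by edgeR.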

How the results depend on the processing

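Between the ages, library totals gave 62 genes called higher in wildtype and 69 in Stab1-/- livers, limma called 62 higher and 3 lower in wildtype livers, and GC content and length offsets left 69 higher in Stab1-/- livers, with Atp5b and Atp5s below 0. Over all genes, limma with 0.1 added called 3272 higher and 7283 lower of 15036 in wildtype livers. The fit with GC content and length offsets called 5197 and 4383 of 13346 in Stab1-/- livers. Without 1 library, 73 to 76 genes were called higher and 2 lower in wildtype livers, and 75 and 2 in Stab1-/- livers. The median of the subunit genes in wildtype livers was 0.57 by library totals and 0.53 by limma with either pseudocount or no filter, over 82 genes. In Stab1-/- livers it was 0.73 by library totals and by each limma fit (81 or 82 genes), 1.13 with GC content offsets, 1.12 with these and the replicate block and 0.79 with GC content and length offsets. The wildtype change of Cox7a1 was -0.27 by library totals, -0.40 by limma with 0.1 added, with or without a filter, and -0.28 with 1 added, and ran from -0.31 to 0.36 without 1 library. That of Cox7a2 was -0.033 by library totals and -0.030 by each limma fit.

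Between genotypes at 2 weeks, 1 gene was called higher in a fit to all 15 libraries (Cox7a2l) and 1 lower with GC content and length offsets, where the median was -0.083, and 0.086 at E17.5. For the difference between the ages the median was 0.21 by library totals, 0.22 by each limma fit and -0.15 with GC content and length offsets. There DESeq2 called 1 gene higher and 1 lower, limma with 1 added called 1 higher (Ndufs5), and without 1 library the count ran from 0 to 1, with Uqcrq called without wildtype replicate 2 at 2 weeks. That limma fit called 277 higher and 69 lower of 16058 genes in all, and the fit without that library 373 and 311 of 13861. Over all genes, 429 were called higher and 458 lower at 2 weeks by DESeq2 and 316 and 387 in the fit to all libraries, 107 and 112 at E17.5 by DESeq2, and 448 and 618 for the difference between the ages by DESeq2. With GC content and length offsets 115 were called higher and 194 lower of 12648 at 2 weeks. The cause was not tested.

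The labels tie replicate numbers to nothing shared, and the pairing was not taken as given, since not every same-numbered pair of libraries correlated above 0.1. Between genotypes the values were 0.195, 0.0153, 0.179 and 0.141 at 2 weeks, which leaves a pairing at that age unsettled, and -0.16 to -0.00142 at E17.5. Not every library correlated best with its own number: Stab1-/- replicate 1 at 2 weeks had 0.278 with wildtype replicate 2. With the replicate block 4 of the 79 subunit genes were called higher at 2 weeks (Atp5f1, Ndufb2, Ndufb4 and Ndufc2), also 4 with GC content offsets. For the difference between the ages 2 were called higher (Ndufb2 and Uqcrq), also 2 with the offsets. Over all genes the block called 642 higher and 539 lower of 12716 at 2 weeks and 10 and 13 of 13388 at E17.5. For the difference between the ages it called 345 and 246 of 13885. With the offsets added these were 377 and 365 of 12648, 18 and 25 of 13303, and 149 and 214 of 13787.

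Shares of some forms changed sign when 1 library was left out. In percentage points, Stab1-/- minus wildtype, Cox4i2 ran from -0.0782 to 0.0463 and Cox6a2 from -0.104 to 0.0272 at E17.5, Cox6b2 from -0.232 to 0.084 at 2 weeks and -1.58 to 0.643 at E17.5, Cox7a1 from -0.468 to 0.307 at 2 weeks, and Atp5g1 from -1.12 to 0.149 at E17.5. Cox7a1 at 2 weeks minus E17.5 ran from -0.77 to 0.00565 in wildtype livers.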
